A study of Mus musculus with 6 samples.

Results

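Tissue factor, the plasminogen activators and the proteins that govern coagulation were examined in embryonic mouse cortex labelled as a double knock-out of the Hippo kinases Lats1 and Lats2. The set named 9 genes, F3, Tfpi, Tfpi2, Thbd, F2r, F2rl1, Serpine2, Plau and Plat, chosen by their roles and selected on the DKO minus control difference of F3, which was already known. Rows of the array table that carried exactly 1 gene symbol were used, and 7 of the 9 genes had such a row, out of 22180 genes with a row in all. F2rl1 and Serpine2 were not analysed here. All 7 measured members passed the limit set for dim genes, a mean log2 value of 5.02 over the 6 arrays, and each had 1 row.

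Total RNA of the dissected cortex was measured at E12.5, 1 array per embryo, in 3 embryos of the genotype Lats1F/F;Lats2F/F;Nestin-Cre (called DKO, double knock-out) and 3 embryos labelled control. The labels give no alleles for the control embryos, and all samples were untreated. In the DKO embryos both kinase genes are flanked by recombination sites and Nestin-Cre removes them in neural progenitors and the cells these produce, so blood vessels, meninges and blood cells of the sample are not the main site of deletion. Each value is a log2 expression value made by the authors with RMA, and a difference of 1 is a doubling. Lats1 was lower in DKO cortex, at 7.79 ± 0.05 in DKO and 8.71 ± 0.33 in control embryos (SD, n = 3 each), and passed limma's test (adjusted p 0.0189). Lats2 was not lower: its mean was 7.27 ± 0.09 in DKO and 7.03 ± 0.17 in control embryos (SD, n = 3 each). All 3 DKO arrays lay above all 3 control arrays, as in 8.22% of all genes tested. The log2 difference of Lats2 was 0.24 ± 0.10 (SE, limma adjusted p 0.285). Dropping control 1, control 3, DKO 1 or DKO 3 ended the Lats1 call, with adjusted p from 0.0571 to 0.0875. The positions of the probes relative to the deleted exons are not given in the sources used here, so the Lats2 value does not check the labels. Of 12 cortex markers 11 had a row, all above the limit for dim genes.

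Coagulation starts when tissue factor, the membrane protein encoded by F3, meets factor VII of the blood, and leads to the formation of thrombin. Tfpi blocks the tissue factor complex, thrombomodulin (Thbd) turns thrombin towards activating the anticoagulant protein C, and cells sense thrombin through the receptor Par1 (F2r). Urokinase (Plau) and tissue-type plasminogen activator (Plat) convert plasminogen to plasmin, which dissolves fibrin and cuts matrix proteins, and serpins such as Serpine2 inhibit them. In the brain these proteins also act outside the blood: Plat in cell migration and synapses, and Plau with its receptor in cell movement. Lats1 and Lats2 restrain the coactivators YAP and TAZ, which act on DNA through TEAD factors, often beside AP-1.

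The upstream sequences of the members are shown because F3 was the member with the large difference and AP-1 and TEAD motifs could be looked for in its promoter. RefSeq (GRCm38.p6) promoter entries were matched for 5 of the 9 members, F3, F2r, Tfpi, Tfpi2 and Serpine2, with 8 start sites between them; Thbd, F2rl1, Plau and Plat were not matched. The 250 bases before each start were searched on both strands. The AP-1 motif was spelled TGANTCA. The TEAD motif was spelled GGAATG. The letters for Sp1 were GGGCGG. The AP-1 motif occurred before 3 of the 8 starts, and these 3 sequences are given 5′ to 3′ on the gene's strand, with the AP-1 matches in capitals. The F3 sequence lies at chr3:121723287-121723536 (plus strand), the F2r sequence at chr13:95618467-95618716 (minus strand) and the Tfpi2 sequence at chr6:3968376-3968625 (minus strand), 1 of 3 starts listed for Tfpi2.
F3: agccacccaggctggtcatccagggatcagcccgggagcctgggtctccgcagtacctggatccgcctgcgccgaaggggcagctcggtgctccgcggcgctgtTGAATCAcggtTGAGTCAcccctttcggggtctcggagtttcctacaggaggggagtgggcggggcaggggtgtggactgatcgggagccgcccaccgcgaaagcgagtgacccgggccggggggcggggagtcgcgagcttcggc
F2r: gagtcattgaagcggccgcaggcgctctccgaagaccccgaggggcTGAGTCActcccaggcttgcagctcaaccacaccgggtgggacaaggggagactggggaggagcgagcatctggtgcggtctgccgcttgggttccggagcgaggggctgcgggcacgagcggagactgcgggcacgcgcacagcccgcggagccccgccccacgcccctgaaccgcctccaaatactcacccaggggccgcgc
Tfpi2: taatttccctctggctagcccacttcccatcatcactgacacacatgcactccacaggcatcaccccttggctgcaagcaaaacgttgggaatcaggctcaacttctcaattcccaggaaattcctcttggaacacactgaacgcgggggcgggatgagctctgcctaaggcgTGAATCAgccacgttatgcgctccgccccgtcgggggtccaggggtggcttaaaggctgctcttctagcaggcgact

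F3 held 2 matches to the AP-1 motif, which begin 146 and 135 bases before the start. F2r held 1 match, beginning 204 bases before its start, and the Tfpi2 start held 1, beginning 77 bases before it. Of 32851 promoter windows of the same length, 6.75% held at least 1 match to TGANTCA and 0.338% held 2 or more. The TEAD motif had 0 matches in the 8 windows, against 12.6% of all windows with at least 1. The Sp1 motif occurred in 6 of the 8 windows, with 6 matches in Serpine2, 3 in F3, 2 in the printed Tfpi2 window, and 1 in F2r and in each of the Tfpi windows. Of all windows, 32.7% held at least 1 and 16.7% held 2 or more. No match of 1 motif overlapped a match of another in these windows. A match to these letters is a description and does not show that a factor binds.

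Among the 7 measured members F3 rose, 0 fell and 6 stayed short of the threshold. The test was limma's, fitted over 16724 genes, and a gene was called at a Benjamini-Hochberg adjusted p under 0.05. By that rule 1.72% of all genes were called, 1.36% as risen and 0.359% as fallen. The members were chosen with this comparison already known, so their fold changes and calls are given as a description without p-values, and the count of calls supports nothing further. The median log2 fold change of the 7 members was 0.11, against -0.03 over all genes tested. The mean was higher in DKO for 6 of the 7 members, and for 6660 of the 16724 genes.

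**Figure D1:**
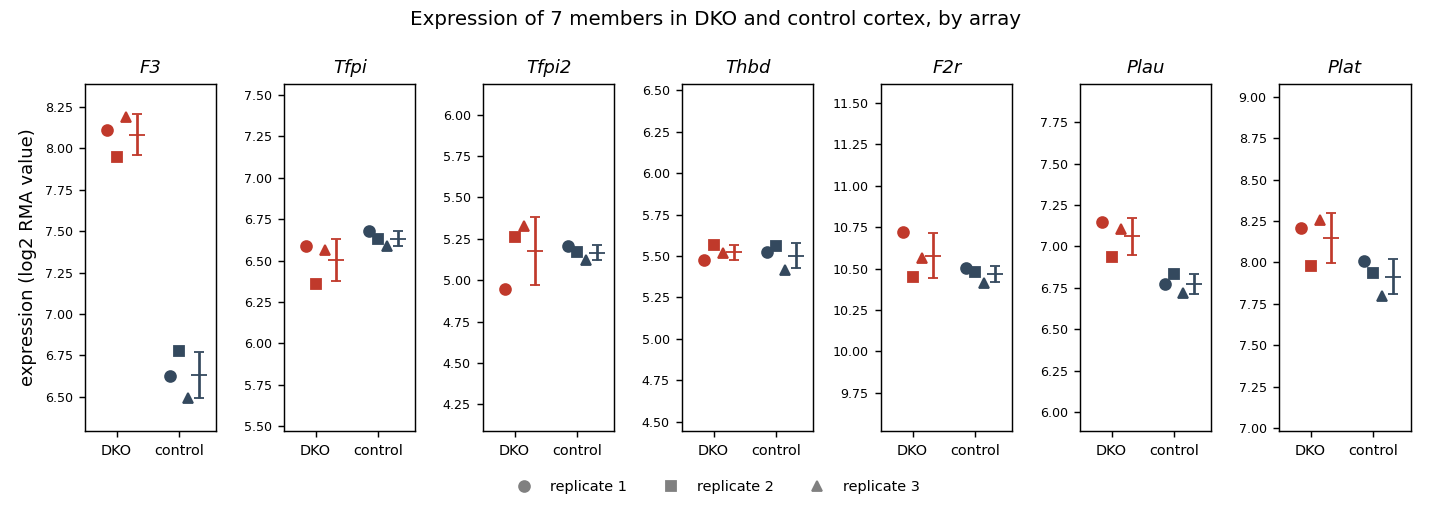
Log2 expression (vertical axis, the same span of log2 units in every panel) of the 7 measured members in DKO (red, left) and control cortex (dark, right). Each symbol is 1 array, its shape the replicate number, and the bars give the mean and SD of 3 arrays. F3 and Plau have every DKO array above every control array, with a wide gap for F3 and a narrow one for Plau.

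F3, the gene of the initiator of coagulation, had log2 values of 8.11, 7.95 and 8.19 in the DKO embryos, against 6.62, 6.77 and 6.49 in the control embryos. The groups did not overlap, a separation in this direction that 8.22% of all genes tested showed. The lowest DKO array lay 1.18 log2 units above the highest control array, and the spread within each group was small beside that gap. The mean was 8.08 ± 0.12 in DKO and 6.63 ± 0.14 in control cortex (SD, n = 3 each). The log2 fold change was 1.45 ± 0.09 (SE), a 2.74-fold higher signal. Only 0.108% of the genes tested had a larger increase, and F3 stood at rank 19 of 16724.

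Neither inhibitor of the tissue factor family passed the test. Tfpi, the Kunitz-type inhibitor of the tissue factor complex, had values of 6.59, 6.36 and 6.57 in DKO and 6.68, 6.63 and 6.59 in control embryos. The ranges met at their edges and overlapped, and the mean of DKO was the lower one. The log2 fold change was -0.13 ± 0.08 (SE), and Tfpi was the member with the most negative value.

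Tfpi2, a related Kunitz inhibitor that acts mainly on plasmin and other proteases of the matrix, had values of 4.94, 5.26 and 5.33 in DKO and 5.21, 5.17 and 5.12 in control embryos. DKO arrays lay on both sides of the control range. Its log2 fold change was 0.01 ± 0.10 (SE). The mean of Tfpi2 was close to the limit for dim genes (5.02), and the row was not shown to be above background.

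Thrombomodulin and the thrombin receptor gave small differences with overlapping groups. Thbd, the thrombin cofactor of the endothelial surface, had values of 5.48, 5.57 and 5.52 in DKO and 5.53, 5.56 and 5.42 in control embryos, a log2 fold change of 0.02 ± 0.07 (SE). All 6 arrays lay close together. F2r, the receptor that thrombin cuts and thereby activates, had values of 10.72, 10.45 and 10.56 in DKO and 10.51, 10.48 and 10.41 in control embryos. DKO 2 lay inside the control range and the other DKO arrays above it, with a log2 fold change of 0.11 ± 0.08 (SE).

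The 2 plasminogen activators had higher means in DKO, and neither passed the test. Plau had values of 7.15, 6.93 and 7.10 in DKO and 6.77, 6.84 and 6.72 in control embryos. All 3 DKO arrays lay above all 3 control arrays, by 0.0988 log2 units at the nearest pair, a separation in this direction that 8.22% of all genes tested showed. The log2 fold change of Plau was 0.29 ± 0.08 (SE), 1.22-fold, and 3.58% of the genes tested had a larger increase. Plat had values of 8.21, 7.98 and 8.26 in DKO and 8.01, 7.93 and 7.80 in control embryos, where DKO 2 fell just below control 1. Its log2 fold change was 0.23 ± 0.09 (SE), 1.18-fold, with a larger increase in 4.88% of genes.

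The order of the fold changes was F3, Plau, Plat, F2r, Thbd, Tfpi2 and Tfpi. The values of Plau and Plat lay within 1 standard error of each other, and so did those of Thbd and Tfpi2.

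**Figure D2:**
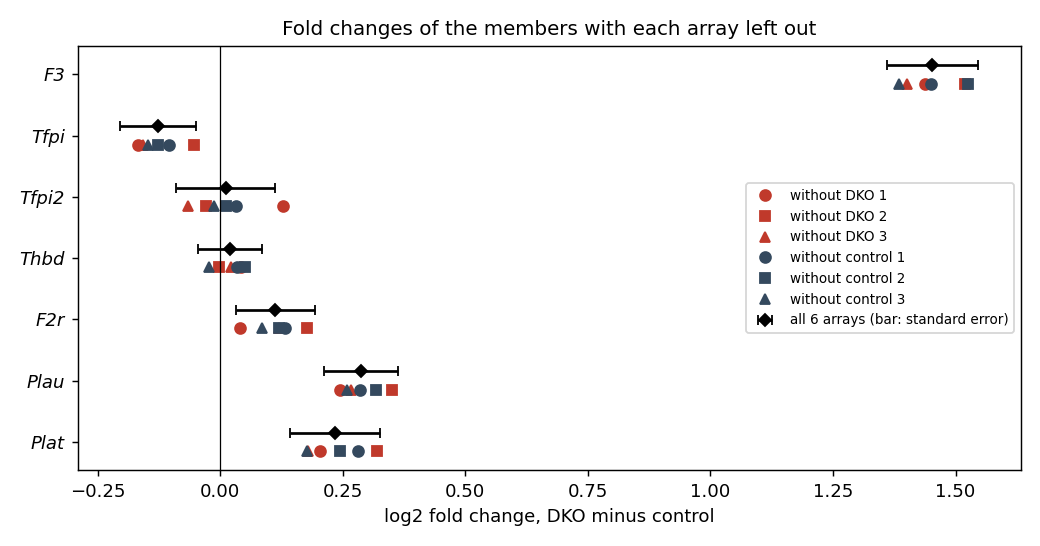
Log2 fold change (DKO minus control, horizontal axis) of each member with all 6 arrays (black, with its standard error) and with 1 array left out (colour for the group, shape for the replicate number). F3 stays between 1.38 and 1.52, while the values of Tfpi2 and Thbd fall on both sides of 0.

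Leaving out 1 array at a time left F3 called in all 6 fits, with a log2 fold change from 1.38 to 1.52. In the plot of fold changes with arrays left out, Plau ranged from 0.24 to 0.35 and Plat from 0.18 to 0.32, each highest without DKO 2. F2r ranged from 0.04 without DKO 1 to 0.18 without DKO 2, and Tfpi from -0.17 without DKO 1 to -0.05 without DKO 2. The number of members called was 1 that rose and 0 that fell in each of these fits.

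Within the groups several members had their lowest value in the same array. Of the 7 members, 5 (F3, Tfpi, F2r, Plau and Plat) were lowest in DKO 2 among the DKO arrays, by 0.13 to 0.17 log2 units under the group mean. All 7 were lowest in control 3 among the control arrays. The share of all genes lowest in these arrays was not counted, so the pattern is not shown to be particular to the members. Markers of other cell types moved in the same arrays. All 16 endothelial markers were lowest in DKO 2 among the DKO arrays, and their mean log2 level was 7.57, 7.12 and 7.63 in DKO and 7.75, 7.66 and 7.59 in control embryos. None of the 16 lay under the limit for dim genes, and 15 had a lower mean in DKO, as did 10064 of the 16724 genes tested. By limma 0 were called, with 5 at an unadjusted p under 0.05, which 15.6% of all genes tested reached, and fewer vessel cells cannot be told apart from less RNA per cell in such bulk tissue. Thbd, which endothelium is known for, was not lowest but highest in DKO 2 among the DKO arrays. Its 3 DKO values had an SD of only 0.04, against a median residual SD of 0.0951 over the genes tested, so their order carries little information.

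Mean levels of the other lists of non-neural cells were also lowest in DKO 2. The mean level of 9 pericyte markers was 7.07, 6.75 and 7.05 in DKO and 7.18, 7.06 and 7.12 in control embryos, and that of 13 meningeal markers was 7.38, 6.80 and 7.21 in DKO and 7.33, 7.23 and 7.04 in control embryos. Among the DKO arrays 7 of the 9 pericyte and 10 of the 13 meningeal markers were lowest in DKO 2. Control 3 had the lowest mean level of the control arrays for meninges, endothelium, platelets and, narrowly, microglia and erythroid cells. Pericytes were lowest in control 2. For 7 measured platelet markers the level was 6.63, 6.31 and 6.81 in DKO and 6.75, 6.71 and 6.64 in control embryos, and 3 of the 7 were lowest in DKO 2 among the DKO arrays. It was 8.15, 7.53 and 8.18 in DKO and 8.08, 8.08 and 8.06 in control embryos for 6 measured erythroid markers, all 6 lowest in DKO 2 among the DKO arrays. Of 11 measured microglial markers 9 were lowest in DKO 2 among the DKO arrays, and Aif1 and Ptprc lay under the limit for dim genes. By limma 0 genes of these lists were called. At an unadjusted p under 0.05 there were 1 pericyte, 2 meningeal, 1 platelet, 0 erythroid and 2 microglial genes, against 15.6% of all genes tested. The part of these cells in the members' values was not tested.

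**Figure D3:**
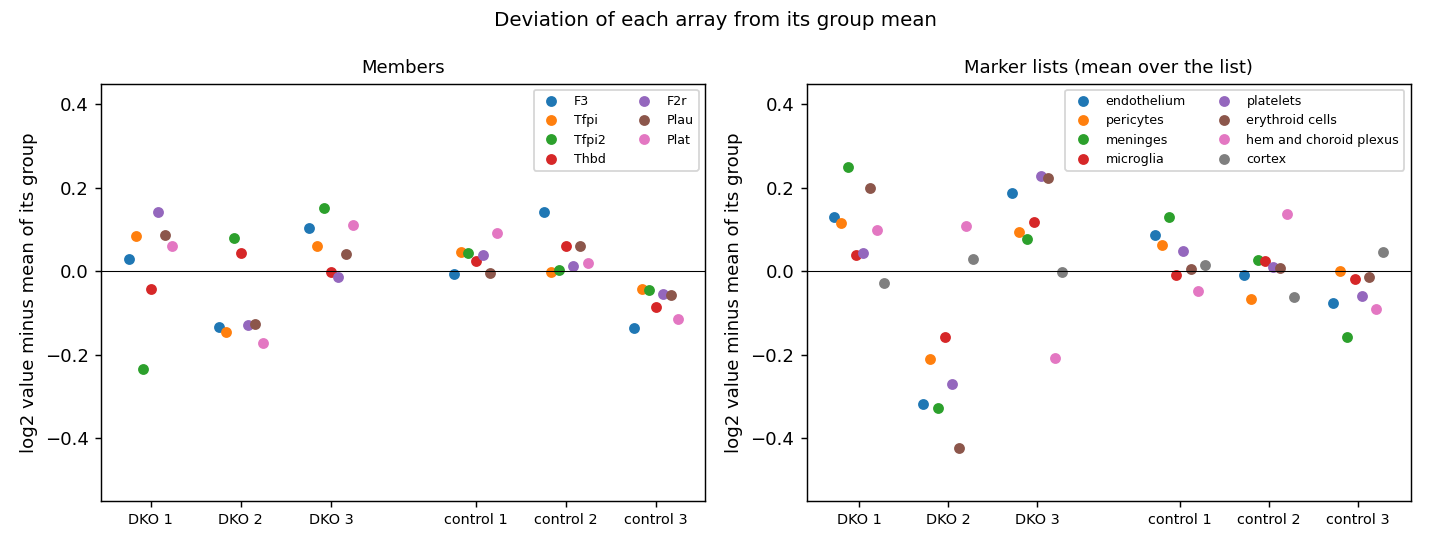
Deviation of each array from the mean of its own group (vertical axis, log2 units) for the 7 members (left) and for the mean of 8 marker lists (right), points shifted sideways for legibility. In DKO 2, 5 members lie under 0 together with the endothelial, pericyte, meningeal, microglial, platelet and erythroid lists, and in control 3 all 7 members lie under 0.

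Hem and choroid plexus markers had mostly higher means in DKO. Of 17 measured, 15 had a higher mean in DKO, as did 6660 of the 16724 genes tested. By limma 2 (Ttr and Lmx1a) rose and 0 fell, where 1.36% of all genes tested rose. Clic6 lay under the limit for dim genes. Of the 16 tested, 10 had an unadjusted p under 0.05 by limma, which 15.6% of all genes tested reached. The mean level of the list was 6.57, 6.57 and 6.26 in DKO and 5.96, 6.15 and 5.92 in control embryos. The highest fold change in the list was that of Ttr (2.24) and the lowest that of Kl (-0.15). The cortex markers had a mean level of 9.52, 9.58 and 9.55 in DKO and 9.74, 9.66 and 9.77 in control embryos, lower in every DKO array. By limma 0 of 11 were called and 9 had an unadjusted p under 0.05. The mean was lower in DKO for 9 of the 11 and higher for 2, and lower for 10064 of the 16724 genes tested. Whether a changed share of midline tissue takes part in the rise of F3 was not tested.

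Beyond the members, 5 lists of genes of the same pathway were examined, 81 genes of which 76 had a row and 62 passed the limit for dim genes. By limma's adjusted p over all genes 5 of the 62 rose and 0 fell, a share of 8.06% called, against 1.72% of all genes tested. The lists were chosen with earlier results of these data known, so this share supports nothing further. Means in DKO were higher for 27 and lower for 35 of the 62, with a median log2 fold change of -0.03. The 5 that rose were Anxa2, Gas6, Anxa5, A2m and Adamts1. Those genes are described with their lists.

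**Figure D4:**
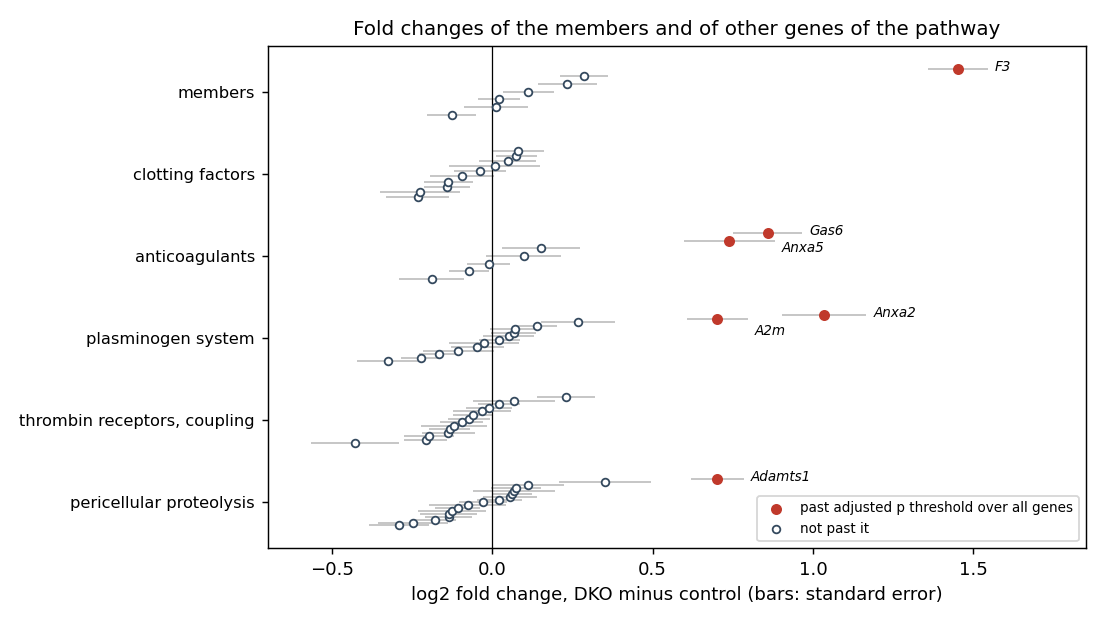
Log2 fold change (DKO minus control, horizontal axis) with its standard error for the members and for 5 lists of pathway genes above the limit for dim genes, 1 point per gene. Red points passed the adjusted p threshold over all genes: F3 among the members, and Gas6, Anxa5, Anxa2, A2m and Adamts1 among the lists.

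No gene of the clotting factor list passed the test. The list also held Tbxas1, Ggcx and Vkorc1, which do not encode clotting factors and were among the genes tested. Of 18 measured genes of this list, 8 lay under the limit for dim genes (F2, F5, F9, F13b, Fga, Fgb, Fgg and Kng1). Of the 10 tested 0 rose and 0 fell by limma, with a median log2 fold change of -0.07. An unadjusted p under 0.05 was reached by 1 of the 10, against 15.6% of all genes tested. The smallest p in the list belonged to F8, which encodes factor VIII, with -0.23 ± 0.10 (SE) and a limma adjusted p of 0.305. F7, the gene of the partner of tissue factor, had -0.14 ± 0.07 (SE) and a limma adjusted p of 0.398.

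Of 10 genes listed as anticoagulants or their relatives 7 were tested, and 2 rose, where 1.36% of all genes tested rose. Gas6, a vitamin K-dependent ligand of the TAM receptors and a relative of protein S, had values of 8.04, 7.72 and 8.15 in DKO and 7.16, 7.15 and 7.03 in control embryos. The groups were well apart, and the log2 difference was 0.86 ± 0.11 (SE, limma adjusted p 0.00598). Anxa5, which encodes the phosphatidylserine-binding annexin A5, had values of 10.08, 9.54 and 9.57 in DKO and 9.08, 9.04 and 8.84 in control embryos. DKO 1 stood above the other DKO arrays, and the log2 difference was 0.74 ± 0.14 (SE, limma adjusted p 0.0426). Anxa5 was no longer called when control 1 was dropped (adjusted p 0.108), likewise control 2 (0.0975), control 3 (0.154) and DKO 3 (0.0762), or when no limit for dim genes was set (0.0537).

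Of 14 measured genes of the plasminogen system 2 rose and 0 fell, against 1.36% risen and 0.359% fallen of all genes tested. Anxa2, whose product with S100a10 forms a cell-surface receptor for plasminogen and Plat, had values of 9.22, 8.68 and 9.13 in DKO and 8.05, 7.98 and 7.89 in control embryos. DKO 2 was the lowest DKO array, and it too lay above all control arrays. The log2 difference was 1.03 ± 0.13 (SE, limma adjusted p 0.00618). A2m, a broad inhibitor of proteases, had values of 6.35, 6.34 and 6.49 in DKO and 5.60, 5.90 and 5.58 in control embryos, a log2 difference of 0.70 ± 0.10 (SE, limma adjusted p 0.00859). Other genes were chosen after their values were seen. S100a10 had 0.27 ± 0.12 (SE, limma adjusted p 0.317). Plaur, the receptor of Plau, had 0.14 ± 0.06 (SE, limma adjusted p 0.33), with all DKO arrays above the control arrays, as in 8.22% of all genes tested. Serpini1, the serpin neuroserpin that inhibits Plat in neurons, had -0.32 ± 0.10 (SE, limma adjusted p 0.158), with all DKO arrays below the control arrays, a separation that 13.4% of all genes tested showed. Plaur and Serpini1 did not pass the test.

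Of 14 thrombin receptor and coupling genes 0 rose and 0 fell by limma, with a median log2 fold change of -0.08. An unadjusted p under 0.05 was reached by 4 of the 14, against 15.6% of all genes tested. Plcb1, a phospholipase C that receptors of this kind switch on, had -0.43 ± 0.14 (SE, limma adjusted p 0.188), and Arrb1, an arrestin that shuts such receptors off, had -0.21 ± 0.07 (SE, limma adjusted p 0.193). The other thrombin-type receptors, named after their values were seen, were F2rl2 with -0.12 ± 0.10 (SE, limma adjusted p 0.632) and F2rl3 with 0.07 ± 0.13 (SE, limma adjusted p 0.847).

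Of 17 tested genes of pericellular proteolysis 1 rose and 0 fell, against 1.36% risen and 0.359% fallen of all genes tested. Adamts1, a secreted metalloprotease that cleaves matrix proteoglycans, had values of 7.73, 7.55 and 7.69 in DKO and 7.10, 6.87 and 6.89 in control embryos. The groups were separate, and the log2 difference was 0.70 ± 0.08 (SE, limma adjusted p 0.00445). The metalloproteases of the Mmp family and the Timp inhibitors that were tested did not pass. Mmp3, Timp4 and Hgf lay under the limit for dim genes, and Mmp15 was not analysed here.

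The genes whose array values were most like those of F3 were found by the root mean square difference of values centred on each gene's own mean over 6 arrays. They were Casq1, a calcium-binding protein of the sarcoplasmic reticulum, Clu, a secreted chaperone, Irs2, an adaptor of insulin receptors, Mcam, a cell adhesion molecule, and Ccn2, a matricellular protein. Their differences from F3 were 0.0872 for Casq1, 0.112 for Clu, 0.131 for Irs2, 0.133 for Mcam and 0.145 for Ccn2, in log2 units. The Pearson correlations with F3 over the 6 arrays lay between 0.984 for Irs2 and Mcam and 0.998 for Ccn2, and all 6 arrays share the split into DKO and control, which sets most of such a correlation. Likeness to F3 with the group means removed was not tested. The log2 fold changes were 1.45 for Casq1, 1.33 for Clu, 1.43 for Irs2, 1.40 for Mcam and 1.71 for Ccn2. That of Ccn2 was 0.90 when its rows were averaged instead of the brightest row being used.

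**Figure D5:**
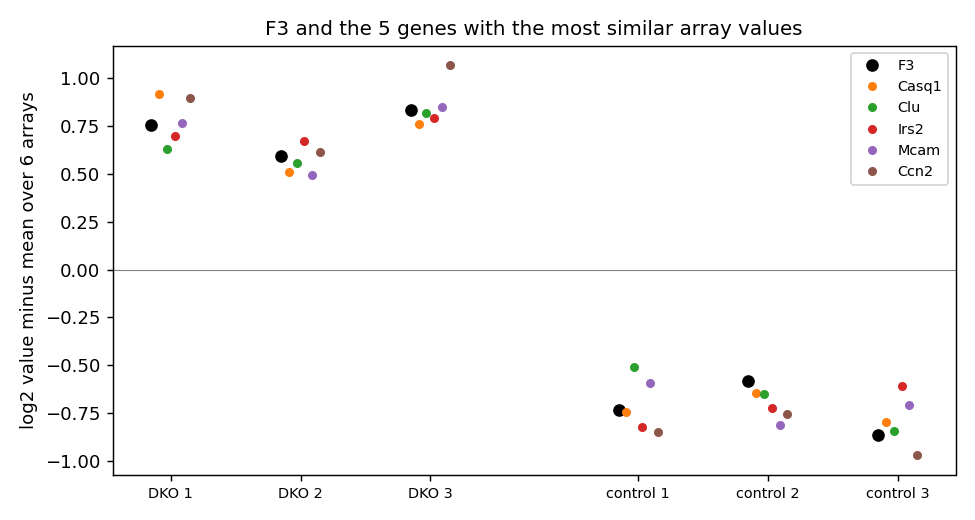
Log2 values of F3 (black) and of its 5 nearest genes, each minus the gene's mean over 6 arrays (vertical axis), by array and shifted sideways for legibility. All 6 genes lie above 0 in the 3 DKO arrays and below 0 in the 3 control arrays.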

How the data were processed

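The deposited log2 values were made by the authors with RMA, per the submitters' processing notes, from 1 Affymetrix whole-transcript array per embryo; per the labels, 100 ng of total RNA was used. RMA equalises the arrays and so hides any change shared by all transcripts. No detection calls were used, and the genome build of the probes is not given in the sources used here. The table held 41345 rows, of which 23521 had 1 gene symbol in the platform's annotation, 1814 had several and 16010 are unnamed here. For genes with several rows the one with the highest mean over the 6 arrays was taken. Genes whose mean lay in the lowest 25% of rows with 1 symbol (under 5.02) were left out, so 16724 were tested.

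DKO was compared with control by limma 3.58.1 in R 4.3.3 (lmFit, eBayes, two-sided, no covariate). With 3 arrays against 3 an exact permutation test cannot give a two-sided p below 0.1. The median residual SD was 0.0951, and the number of arrays limits the precision. Correlations between arrays were 0.978 to 0.994, and no array was a copy of another. The fit was tested on simulated data.

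The members, the gene and marker lists and the naming rule were chosen with earlier results of these data known. Named were all members, Lats1 and Lats2, called genes of each pathway list (otherwise the 2 with the smallest p), the 5 genes nearest to F3 (unnamed clones passed over), and of the marker lists the called genes and the extremes where the text turns on them. Of surface epithelium markers 8 of 9 had a row, and of 6 tested 0 were called by limma and 1 had an unadjusted p under 0.05. Filters, variance model, scaling, row choice, replicate block and each array left out were the alternatives tried.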

Additional observations from a re-analysis of the deposited data

How the results depend on the processing

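F3 was called under all 14 alternatives, with log2 fold changes of 1.38 to 1.52, and no other member was called under any. Tfpi, F2r, Plau and Plat kept their sign in all 14. Tfpi2 turned to -0.0120 without control 3, -0.0295 without DKO 2 and -0.0653 without DKO 3 (leave-one-out range to 0.13), and Thbd to -0.0221 without control 3 and -0.0018 without DKO 2 (range to 0.0504). With the stricter limit at the 50th percentile Tfpi2 and Thbd were left out. The 5 other pathway genes that rose numbered 4 or 5 under every alternative.

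The background counts moved with the alternatives. The members' count rests on F3 alone, the gene whose known difference selected the set, so its steadiness is not set against these counts. Against 228 genes that rose and 60 that fell, the number that fell was 134 with the stricter limit, 162 with a trended variance and 123 with array weights. Leaving out 1 array gave 121 to 260 that rose and 11 to 54 that fell, each with fewer samples in the fit. Dropping a control array gave 137 risen and 11 fallen genes (control 1), 140 and 53 (control 2) or 121 and 13 (control 3). The fit lacking DKO 1 gave 131 risen and 14 fallen, and the one lacking DKO 3 gave 130 risen and 14 fallen. Only the fit lacking DKO 2 had more risen genes than the 228 of all arrays: 260, with 54 fallen. It too had fewer samples. The cause of the shifts was not tested. With the replicate number as a block 176 rose and 24 fell. The labels do not tie the numbers to litters, and deviations of same-numbered arrays correlated at -0.10, 0.21 and 0.15, so the numbers were not taken as pairs, and the block changed no member's call. The number of arrays, and for Tfpi2 and Thbd the dim signal, limit what could be seen.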
